A study of Mus musculus with 12 samples.

Results

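The genes described here are 10 products of activated macrophages, chosen by name: the cytokines Il1a, Il1b, Tnf, Il6, Il10, Il18 and Tgfb1, the IL-1 receptor antagonist Il1rn, and the enzymes Ptgs2 and Irg1. All 10 of 10 were found by symbol among the 24346 symbols of the expression tables, and all 10 were among the 11808 genes kept, which had at least 1 FPKM in at least 3 libraries. FPKM counts fragments per length of transcript and per size of library. The macrophages came from tumours grown in Arg1-RFP mice, whose red fluorescent protein reports Arg1, the gene of the arginine-splitting enzyme arginase 1. One tumour was B16F10 melanoma and the other MC38 colon adenocarcinoma, both established mouse lines. Each tumour gave 3 RFP+ and 3 RFP- libraries, 12 in all, so the 4 groups were RFP+ cells of B16F10, RFP- cells of B16F10, RFP+ cells of MC38 and RFP- cells of MC38. All groups shared the reporter allele and the sort for F4/80, CD11b, MHCII and CD45, which removed cells with CD90.2, B220, NK1.1, Ly6G or Ly6C. The labels give no age, sex or treatment, and the reporter marks only cells that express Arg1.

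The libraries carry a title number, 12, 11 and 3 in B16F10 and 1, 2 and 3 in MC38, which recurs in both gates. Arg1 itself stood at 615 to 916 FPKM in RFP+ and 56.2 to 125 FPKM in RFP- libraries of B16F10, and at 394 to 553 against 40.6 to 58.5 FPKM in MC38. All 14 macrophage core genes examined, such as Adgre1 (F4/80) and Csf1r, were at 1 FPKM or more in every library. Their summed level was 6137 to 14959 FPKM in B16F10 and 30517 to 40999 FPKM in MC38. All B16F10 libraries also held RNA of 7 melanocytic genes such as Pmel and Dct, at summed levels of 7771 to 10265 FPKM against 10.7 to 18.8 FPKM in MC38. The value of 1 read, read from the lowest FPKM, was 2.97 to 3.56 times as high in B16F10 as in the deepest MC38 library and 1.05 to 1.21 times in the other MC38 libraries, so fewer reads stand behind a B16F10 value. The B16F10 RFP- library number 12 stood apart, with a total of 815591 FPKM against 614875 to 699948 in the other libraries and the lowest weight of 0.146 when libraries were weighted by their scatter. Results that rest on this library are given with and without its pair. Where nothing ties a library to an animal, p-values measure the spread between libraries, which may be partly technical.

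IL-1 alpha and IL-1 beta act on the same receptor and drive fever, adhesion of leukocytes and neutrophil recruitment, and the product of Il1rn occupies that receptor without signalling. IL-1 beta and IL-18 are made as inactive precursors that caspase-1 cleaves in the inflammasome, so their mRNA says nothing of the released cytokine. TNF and IL-6 are further inflammatory cytokines switched on by NF-kB, whereas IL-10 and TGF-beta 1 restrain inflammation and T cells. Ptgs2 encodes cyclooxygenase-2, which makes the precursor of prostaglandin E2, and Irg1 (now named Acod1) encodes the mitochondrial enzyme that diverts cis-aconitate of the TCA cycle to itaconate. In tumour macrophages these genes are studied because they join inflammatory and suppressive outputs of the same cell.

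Upstream sequences are shown for 5 members: Il1a and Ptgs2, which differed between the gates, Il1b and Irg1, with the largest differences between the tumours, and Tgfb1, which correlated negatively with most other members over both tumours. Each line gives the 250 bases before the start of transcription, 5′ to 3′ on the strand of the gene, from the RefSeq promoter table of GRCm38.p6, in which 9 of the 10 members had an entry. Capitals mark matches to 5 motifs searched on both strands: the TATA box TATAAA, the kappaB site (GGG, any 2 bases and then TTTCC), the AP-1 site TGANTCA, the C/EBP site TTNNGCAA and the cyclic AMP response element TGACGTCA. No matched stretches overlapped one another in these windows.
Il1a, chr2:129309973-129310222, minus strand: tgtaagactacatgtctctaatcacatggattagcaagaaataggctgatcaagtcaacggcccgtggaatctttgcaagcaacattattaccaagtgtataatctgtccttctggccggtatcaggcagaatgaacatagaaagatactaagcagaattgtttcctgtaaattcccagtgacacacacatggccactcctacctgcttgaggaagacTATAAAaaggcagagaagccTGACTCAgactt
Il1b, chr2:129371140-129371389, minus strand: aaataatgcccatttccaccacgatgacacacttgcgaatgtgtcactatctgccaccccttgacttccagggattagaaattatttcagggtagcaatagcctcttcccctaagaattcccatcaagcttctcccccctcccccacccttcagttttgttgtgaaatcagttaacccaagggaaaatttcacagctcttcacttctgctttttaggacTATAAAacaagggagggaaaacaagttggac
Ptgs2, chr1:150099781-150100030, plus strand: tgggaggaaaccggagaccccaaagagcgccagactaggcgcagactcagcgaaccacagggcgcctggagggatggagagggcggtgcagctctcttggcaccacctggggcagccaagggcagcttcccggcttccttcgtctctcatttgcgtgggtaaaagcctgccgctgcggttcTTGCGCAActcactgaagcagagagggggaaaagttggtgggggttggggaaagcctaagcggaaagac
Irg1, chr14:103046762-103047011, plus strand: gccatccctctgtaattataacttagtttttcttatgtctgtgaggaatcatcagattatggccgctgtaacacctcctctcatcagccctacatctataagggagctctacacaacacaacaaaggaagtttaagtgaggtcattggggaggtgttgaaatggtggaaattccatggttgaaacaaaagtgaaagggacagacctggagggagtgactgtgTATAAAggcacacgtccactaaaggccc
Tgfb1, chr7:25686752-25687001, plus strand: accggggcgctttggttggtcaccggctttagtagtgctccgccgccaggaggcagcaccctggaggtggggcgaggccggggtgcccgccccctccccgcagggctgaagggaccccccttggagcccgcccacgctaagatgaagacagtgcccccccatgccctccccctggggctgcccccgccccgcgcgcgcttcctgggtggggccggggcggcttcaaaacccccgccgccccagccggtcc

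Il1a held a TATAAA from -32 to -27 relative to the start and an AP-1 match from -12 to -6. The TATAAA of Il1b lay from -31 to -26, that of Tnf from -29 to -24 and that of Irg1 from -28 to -23. Ptgs2 held a C/EBP match from -69 to -62 and no TATAAA, and Tgfb1 held none of the 5 motifs. Il6, whose window is not shown, held a kappaB match from -44 to -35, a C/EBP match from -128 to -121 and an AP-1 match from -249 to -243. Il1rn, also not shown, had windows at 3 annotated starts. Start 1 held an AP-1 match from -141 to -135 and start 3 a kappaB match from -51 to -42. Il18 held TATAAA on the other strand from -175 to -170. Among all 32851 windows of this length, 12.4% held TATAAA, 1.41% the kappaB motif, 6.75% the AP-1 motif, 9.56% the C/EBP motif and 1.55% the cyclic AMP element. A match describes letters in this window and is not evidence of binding.

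The levels of the 10 genes spanned more than 3 orders of magnitude per length of transcript. Il1b was the most abundant in all 4 groups, from 160 FPKM ± 163 (SD, n = 3) in B16F10 RFP- to 2327 ± 953 in MC38 RFP+. Il6 and Tgfb1 were the least abundant, with group means of 0.961 to 3.89 and 1.28 to 3.27 FPKM. For 8 of the 10 genes the group means stood in one order, MC38 RFP+, MC38 RFP-, B16F10 RFP+ and B16F10 RFP-, and for Tnf and Tgfb1 the B16F10 gates were exchanged. Neighbours in that order within a tumour did not differ beyond the spread of 3 libraries, except for 3 genes of B16F10 when the title number was used as a pair.

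**Figure D1:**
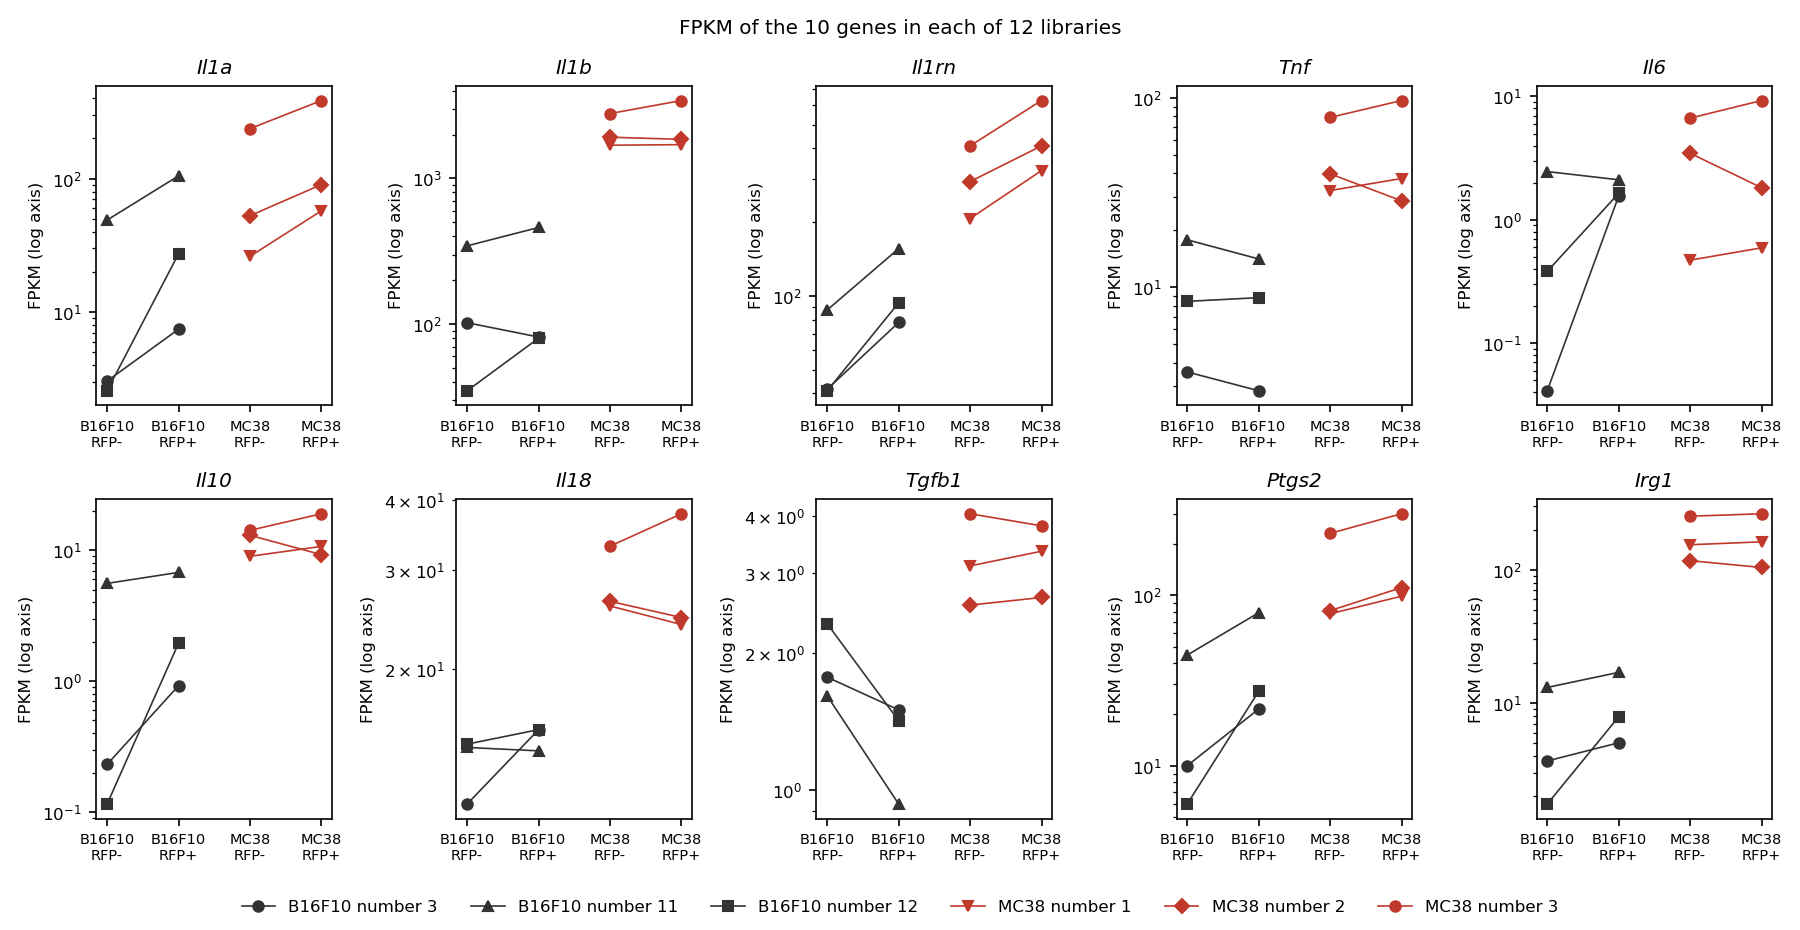
FPKM (log axis, its range differs between panels) of each gene in the 12 libraries, with a line joining the RFP- and RFP+ libraries of the same tumour and title number. Il1a, Il1rn and Ptgs2 slope upward in all 6 pairs, and Il1b and Irg1 have all B16F10 libraries below all MC38 libraries.

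Between the gates, 3 genes stood out: Il1a, Il1rn and Ptgs2 were higher in RFP+ than in RFP- cells in all 6 pairs. Across all genes 4.52% had this direction in all 6 pairs. In B16F10 alone 5 of the 10 genes were higher in all 3 pairs (17.0% of all genes), and in MC38 3 of 10 were (17.3%). A limma model of the 4 group means called none of the 10 in B16F10, where 1 had an unadjusted p under 0.05 and 0.178% of all genes were called, and none in MC38, where none did and 0.0254% of all genes were called. In the model with the title number as a block, Il1a, Il1rn and Ptgs2 rose in B16F10, with 1.36% of all genes called (0.830% higher, 0.525% lower), and none of the 10 was called in MC38, where 2 had an unadjusted p under 0.05 and 0.440% of all genes were called. The title numbers were used as pairs because the deviations of same-numbered libraries from their group means had r from 0.228 to 0.443 across genes. No label ties a number to an animal, and what same-numbered libraries share is not given. In the mean of both tumours the same 3 genes rose with the block (1.92% of all genes called, 1.32% higher, 0.601% lower), and none was called without it, where 1 had an unadjusted p under 0.05 and 0.449% of all genes were called.

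Il1a, the membrane-bound IL-1 alarmin (chromosome 2, 129299610 to 129309972, minus strand, GRCm38), stood at 27.4, 105 and 7.46 FPKM in B16F10 RFP+ numbers 12, 11 and 3. The RFP- libraries of the same numbers had 2.58, 49 and 3.05 FPKM. In MC38 the RFP+ values for numbers 1, 2 and 3 were 57.5, 90.4 and 385 FPKM and the RFP- values 26.2, 52.8 and 237 FPKM. The groups overlapped within each tumour because numbers differed more than gates, yet every RFP+ library was above its partner. The difference in B16F10 was 1.71 ± 0.31 (SE) on the log2(FPKM + 1) scale with the block (limma adjusted p = 0.0214; 0.544 without the block). Leaving out the pair number 12, whose own difference was 2.99, gave 1.08 with an adjusted p of 0.0027 (1.38% of all genes called). In MC38 the difference was 0.85 ± 0.31 with an adjusted p of 0.558. It passed (adjusted p = 0.0037, with 1.16% of all genes called) when the B16F10 pair number 12, which shares the estimate of the spread, was left out. Il1a overlaps the transcript Gm14023 on the other strand, and the strand setting of the counting is not given in the sources used here.

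Il1rn (chromosome 2, 24336853 to 24351494, plus strand) had the steadiest gate difference of the 10 genes. Its B16F10 RFP+ values were 93.7, 156 and 77.9 FPKM for numbers 12, 11 and 3, and the RFP- values 41, 87.6 and 41.6 FPKM. In MC38, numbers 1, 2 and 3 had 325, 410 and 628 FPKM in RFP+ and 207, 293 and 410 FPKM in RFP-. Here too the gates overlapped as groups and every pair pointed the same way, by 0.83 to 1.17 on the log2 scale in B16F10 and 0.49 to 0.65 in MC38. The B16F10 difference was 0.96 ± 0.11 with the block (adjusted p = 0.00178; 0.472 without it) and 0.86 without the pair number 12 (adjusted p = 0.00148). The MC38 difference was 0.58 ± 0.11 with an adjusted p of 0.0623, and 0.0037 without the B16F10 pair number 12. Over both tumours the rise was 0.77 ± 0.08 (adjusted p = 0.000776; 0.397 without the block).

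Ptgs2 (chromosome 1, 150100031 to 150108227, plus strand) read 27.3, 79 and 21.5 FPKM in B16F10 RFP+ numbers 12, 11 and 3 and 5.96, 44.6 and 10 FPKM in their RFP- partners. In MC38 numbers 1, 2 and 3 it read 98.8, 111 and 301 FPKM in RFP+ and 77.9, 81.3 and 231 FPKM in RFP-. The B16F10 difference was 1.29 ± 0.20 with the block (adjusted p = 0.00885; 0.505 without it) and 0.92 without the pair number 12 (adjusted p = 0.00218). In MC38 it was 0.39 ± 0.20 with an adjusted p of 0.898. The macrophage core genes had a mean that was itself higher in RFP+ by 0.26 in B16F10 on the log2 scale. Scaled to them, the block model called the 3 genes higher in B16F10 too, at 1.54 for Il1a (adjusted p = 0.0244), 0.71 for Il1rn (0.0128) and 1.07 for Ptgs2 (0.022). Of all 12176 genes then tested 18.6% were called, 145 of them higher and 2121 lower.

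The other 7 genes did not pass in either tumour. Irg1 was higher in RFP+ in all 3 B16F10 pairs, by 0.80 ± 0.23 with the block (adjusted p = 0.141), of which the pair number 12 gave 1.69 and the other pairs 0.35 and 0.37. Il10 was higher in the same 3 pairs, by 0.24 to 1.40 (adjusted p = 0.186). Il1b had 0.42 ± 0.22 and pairs on both sides of 0, and 0.05 ± 0.16 without the pair number 12. Without it the values were 0.36 for Irg1 and 0.44 for Il10. Tgfb1 was lower in RFP+ in 3 of 3 B16F10 pairs, by 0.35 ± 0.18 (adjusted p = 0.314), a direction held by 19.1% of all genes. In MC38 the means of Il1b, Tnf, Il6, Il10, Il18, Tgfb1 and Irg1 lay between -0.04 and 0.09, with SE from 0.14 to 0.29. None of the 10 genes had a gate effect that differed between the tumours in a test of that difference (limma adjusted p from 0.515 with the block, where 3 had an unadjusted p under 0.05 and 0.0339% of all genes were called, and from 0.895 without it, where none did and 0% were).

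**Figure D2:**
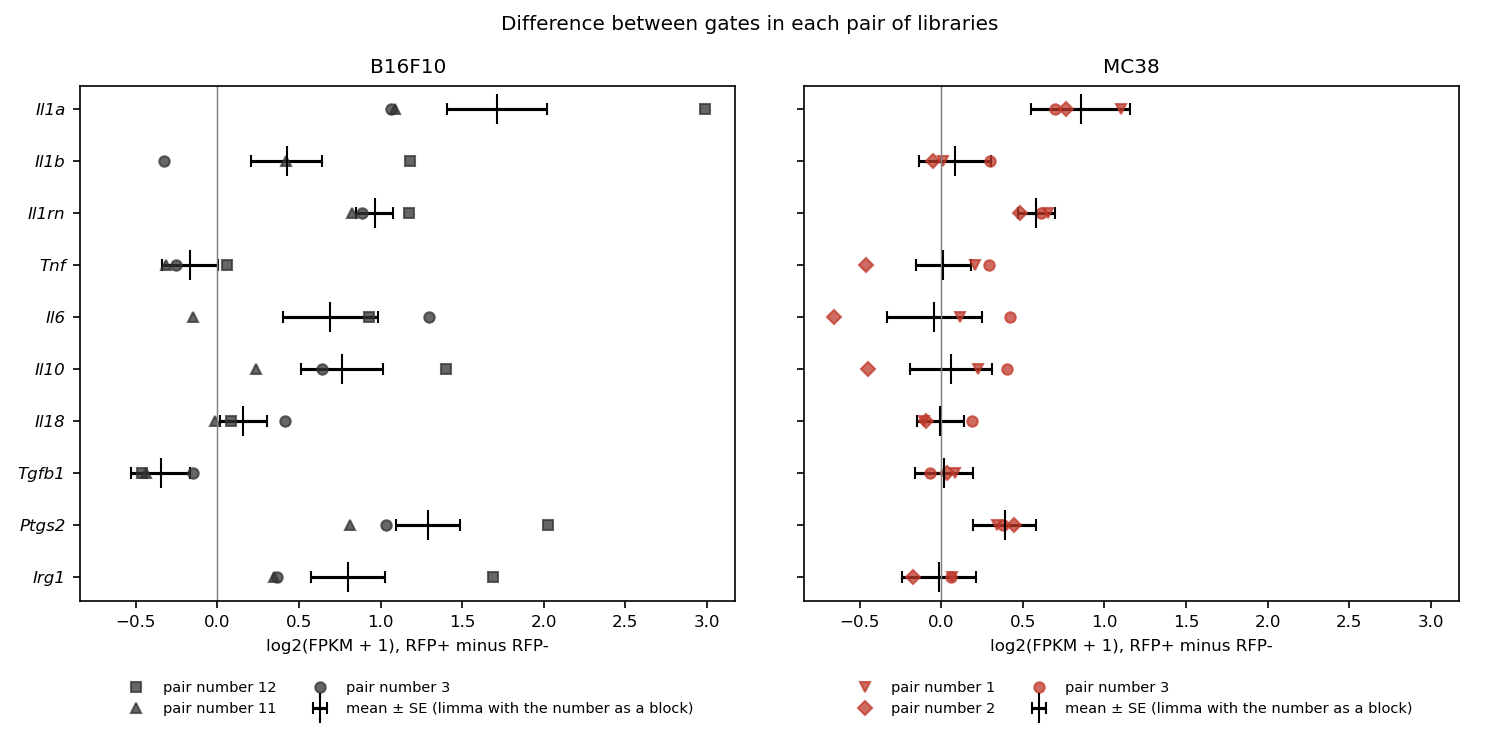
RFP+ minus RFP- difference of log2(FPKM + 1) for each gene in each pair of libraries (symbols), with the mean and SE of the model that uses the number as a block. Il1a, Il1rn and Ptgs2 lie right of 0 in all 6 pairs, and the B16F10 pair number 12 has the highest difference of all 6 pairs for 6 of the 10 genes.

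Other cell markers moved with the gate. The 8 platelet genes, among them Pf4, which macrophages also make, summed to 1371 to 2252 FPKM in B16F10 RFP+ and 287 to 700 FPKM in RFP-, and to 251 to 437 against 88.2 to 218 FPKM in MC38. Gp6, a receptor of platelets, was at 0 in every library of both RFP- groups and of MC38 RFP+, and Gp1ba, another one, in every MC38 RFP+ library. The sum of 8 dendritic cell genes was lower in RFP+ in 6 of 6 pairs, at 13.7 to 20.9 against 28.8 to 53.8 FPKM in B16F10 and 27.1 to 50.5 against 44.5 to 86.5 FPKM in MC38, with none of them at 0 throughout a group. The macrophage core sum was higher in RFP+ in 6 of 6 pairs, and the mean of 19 immediate early genes, which also respond to tissue dissociation, in 5 of 6. Not every core gene followed its sum, since Adgre1 and Csf1r were each lower in RFP+ in 5 of 6 pairs. Their part in the gate differences was not tested, nor was that of the neutrophil genes, whose sum was highest in B16F10 number 3 (369 FPKM in RFP+ and 851 in RFP-) and 34.3 to 128 in the other B16F10 libraries. In these bulk samples a change in the number of producing cells and a change in RNA per cell cannot be told apart.

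Between the tumours, all 10 genes had lower means in B16F10 than in MC38 in both gates. In RFP+ cells 8 of 10 were called lower by limma, against 20.0% of all genes (35.2% were higher), and in RFP- cells 9 of 10, against 21.9% (37.8% were higher). The median difference of the 10 was -2.04 in RFP+ and -2.53 in RFP-, where the median of all genes was 0.24 and 0.23. In each gate 8 of the 10 genes had every B16F10 library below every MC38 library, against 24.8% of all genes in RFP+ and 22.8% in RFP-. Il1a and Il6 overlapped in both gates. The block changed none of these member calls and called 20.0% and 22.0% of all genes lower.

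Irg1 (chromosome 14, 103046977 to 103056573, plus strand) differed the most. Its B16F10 values were 7.89, 17 and 5.04 FPKM in RFP+ and 1.75, 13.1 and 3.68 FPKM in RFP- for numbers 12, 11 and 3. Its MC38 values were 162, 104 and 263 FPKM in RFP+ and 154, 117 and 252 FPKM in RFP- for numbers 1, 2 and 3. No B16F10 library came near the lowest MC38 library. The difference was -4.06 ± 0.55 in RFP+ (adjusted p = 3.87e-05) and -4.88 ± 0.55 in RFP- (6.98e-06).

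Il1b (chromosome 2, 129364570 to 129371139, minus strand) followed, at 79.9, 460 and 81.4 FPKM in B16F10 RFP+ and 34.8, 344 and 102 FPKM in RFP-. In MC38 it reached 1704, 1852 and 3424 FPKM in RFP+ and 1689, 1917 and 2785 FPKM in RFP-. Even number 11, the highest B16F10 library, stayed under the lowest MC38 value. The difference was -3.93 ± 0.73 (adjusted p = 0.00054) and -4.26 ± 0.73 (0.000251). Il1b overlaps its antisense transcript Il1bos, so reads of both cannot be told apart without strand.

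Il1rn was lower in B16F10 by -2.06 ± 0.35 in RFP+ and -2.44 ± 0.35 in RFP- (adjusted p = 0.000267 and 5.87e-05). Tnf (chromosome 17, 35199381 to 35202007, minus strand) read 8.81, 14.1 and 2.84 FPKM in B16F10 RFP+ and 8.42, 17.8 and 3.57 FPKM in RFP-. Its MC38 values were 37.5, 28.6 and 96.8 FPKM in RFP+ and 32.4, 39.7 and 78.8 FPKM in RFP-. The tumours did not overlap, with differences of -2.54 ± 0.59 (adjusted p = 0.00267) and -2.35 ± 0.59 (0.00396). Ptgs2 differed by -2.02 ± 0.68 in RFP+ (adjusted p = 0.0232) and -2.92 ± 0.68 in RFP- (0.00247). In RFP+ it no longer passed without B16F10 RFP+ number 12 (0.0723), B16F10 RFP+ number 3 (0.0899) or MC38 RFP+ number 3 (0.106). Il1a passed in RFP- (-2.97 ± 1.13, adjusted p = 0.0366) and not in RFP+ (-2.11 ± 1.13, 0.13). In RFP- it did not pass without B16F10 RFP- number 12 (0.142) or number 3 (0.125), or without MC38 RFP- number 2 (0.0601) or number 3 (0.155). In RFP+ it passed without B16F10 RFP+ number 11 (0.0493).

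The suppressive cytokines shared the direction. Il10 (chromosome 1, 131019845 to 131024974, plus strand) was at 1.95, 6.77 and 0.923 FPKM in B16F10 RFP+ and 0.115, 5.58 and 0.231 FPKM in RFP-. In MC38 it was at 10.7, 9.25 and 19 FPKM in RFP+ and 8.99, 13 and 14.2 FPKM in RFP-. Only number 11 of B16F10 approached the MC38 range. The differences were -1.92 ± 0.62 (adjusted p = 0.0174) and -2.62 ± 0.62 (0.00248). In RFP+ the call was lost without B16F10 RFP+ number 12 (0.0538), B16F10 RFP+ number 3 (0.0801) or MC38 RFP+ number 3 (0.0707).

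Tgfb1 (chromosome 7, 25687002 to 25705077, plus strand) was at 1.42, 0.931 and 1.5 FPKM in B16F10 RFP+ and 2.32, 1.61 and 1.77 FPKM in RFP-. Its MC38 values were 3.35, 2.65 and 3.81 FPKM in RFP+ and 3.11, 2.55 and 4.05 FPKM in RFP-. The tumours were apart by a small step, -0.90 ± 0.21 (adjusted p = 0.00232) and -0.54 ± 0.21 (0.0376). In RFP- the call was lost without B16F10 RFP- number 11 (0.0985) or number 3 (0.0845), or without MC38 RFP- number 1 (0.0724) or number 3 (0.153).

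Il18 (chromosome 9, 50554827 to 50581840, plus strand), which many macrophages hold without stimulation, was the most even gene. It read 15.6, 14.3 and 15.6 FPKM in B16F10 RFP+, 14.7, 14.5 and 11.5 in RFP-, 24, 24.7 and 37.8 in MC38 RFP+ and 25.9, 26.4 and 33.1 in RFP-. The differences were -0.85 ± 0.19 (adjusted p = 0.00171) and -1.02 ± 0.19 (0.000415), for a gene that overlaps Bco2 and Tex12 on the other strand. Il6 (chromosome 5, 30013114 to 30019981, plus strand) was at 1.64, 2.11 and 1.56 FPKM in B16F10 RFP+ and 0.382, 2.46 and 0.0412 FPKM in RFP-. In MC38 it was at 0.593, 1.82 and 9.26 FPKM in RFP+ and 0.471, 3.46 and 6.67 FPKM in RFP-. It reached 1 FPKM in 8 of 12 libraries, and its differences of -0.38 ± 0.67 and -1.11 ± 0.67 did not pass (adjusted p = 0.656 and 0.169; 0.0377 in RFP- without MC38 RFP- number 1).

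The macrophage core genes were lower in B16F10 too, at -1.87 in RFP+ and -1.99 in RFP- on the log2 scale. When FPKM were scaled to these genes, the median of all genes moved to 1.74 and 1.86, 84.0% and 83.9% of all genes were called higher (2.89% and 2.74% lower) and the calls of most of the 10 genes ended. Irg1 stayed lower, by -2.27 ± 0.67 (adjusted p = 0.00521) and -3.05 ± 0.67 (0.000547), and so did Il1b, by -2.06 ± 0.83 (0.0294) and -2.28 ± 0.83 (0.0178). Il18 turned higher, by 0.93 (adjusted p = 0.0053) and 0.88 (0.00735), and Tgfb1 turned to 0.33 (0.228) in RFP+ and rose by 0.88 (0.00392) in RFP-. The differences of Il1a, Il1rn, Tnf, Il6, Il10 and Ptgs2 did not pass in either gate, at -0.79 to 0.82 in RFP+ and -1.24 to -0.03 in RFP-. Measured against the median of all genes, the 10 genes had lower values under this scaling, from -0.82 for Il18 to -4.01 for Irg1 in RFP+. As deposited these 2 stood at -1.09 and -4.30. Such distances could hardly change, because the scaling divides all genes of a library by the same factor, so they do not test the scaling. The part of melanocytic RNA in the tumour difference was not tested.

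**Figure D3:**
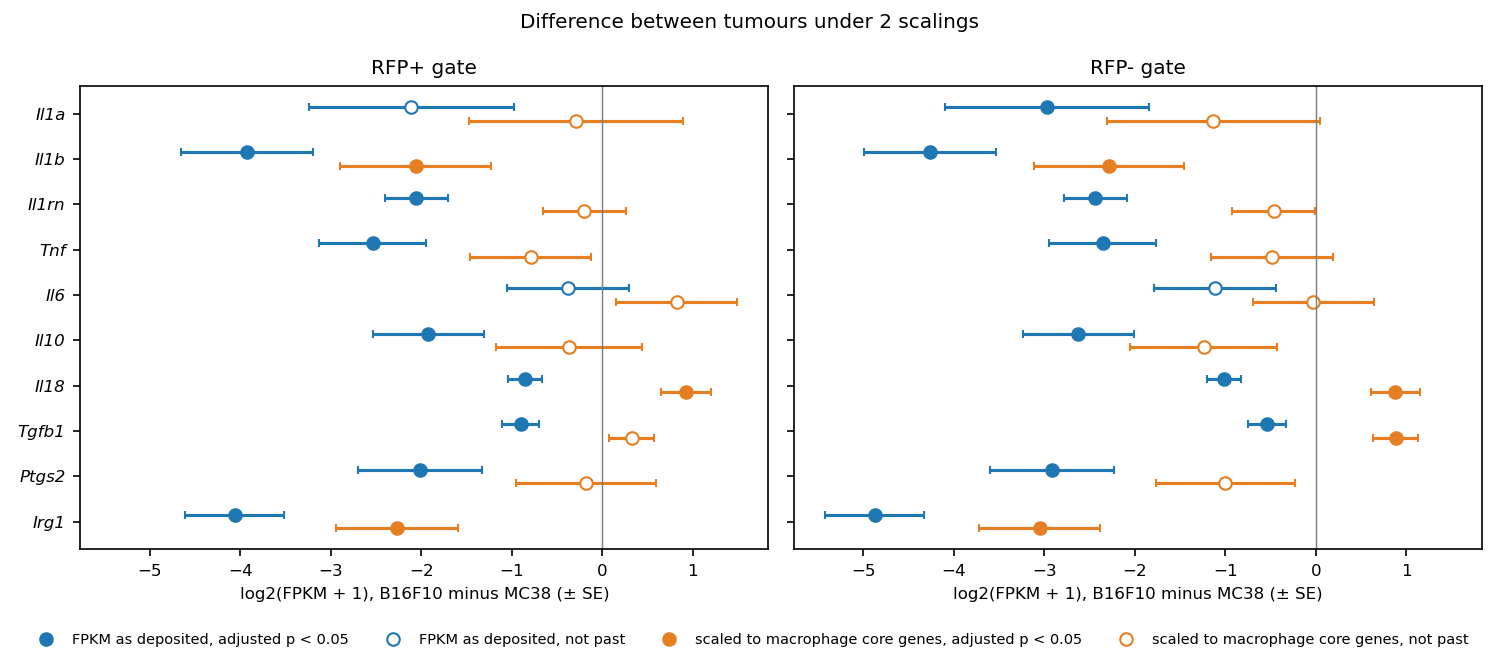
B16F10 minus MC38 difference of log2(FPKM + 1) with its SE in each gate, for FPKM as deposited (blue) and scaled to 14 macrophage core genes (orange), filled where the limma adjusted p was under 0.05. Irg1 and Il1b are filled left of 0 under both scalings, and Il18 moves from -0.85 to 0.93 in RFP+.

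Within a tumour, the title number held more of the spread than the gate for 10 of 10 genes in MC38 and for 7 of 10 in B16F10, all but Il1rn, Il18 and Tgfb1. The number has more levels than the gate, and the medians of all genes had this order too. They were 46.4% between numbers and 17.5% between gates in B16F10, and 48% and 13% in MC38. The share of all genes with this order was not counted. In B16F10 number 11 was the highest of the 3 numbers in both gates for 8 of the 10 genes, all but Il18 and Tgfb1, against 18.4% of all genes. In MC38 number 3 was the highest in both gates for 10 of 10, against 18.5%. Averaged over the gates, the highest number exceeded the lowest by 14.7 times for Il1a, 10.7 times for Il10 and 7.02 times for Il1b in B16F10. In MC38 it did so by 15 times for Il6, 7.42 times for Il1a and 3.01 times for Ptgs2. Of the sum of squares within a tumour, numbers held 98% for Tnf in B16F10 and 98.8% for Irg1 in MC38, where the median of all genes was 46.4% and 48%. Il1rn was less tied to the number, with 46.8% between numbers and 51.9% between gates in B16F10. Il18 had 23.9% between numbers and 32.6% between gates there. Tgfb1 had 55% between gates in B16F10 and 0.202% in MC38.

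Number 11 of B16F10 was the highest for these genes although its macrophage core sums were the lowest of the tumour (8010 FPKM in RFP+ and 6137 in RFP-), as were its neutrophil sums (52 and 34.3). Its melanocytic sums were the highest (10255 and 10265). The neutrophil genes S100a8 and S100a9 stood at 3.81 to 7.37 and 3.49 to 5.74 FPKM in number 11, and at 183 and 102 FPKM in RFP+ number 3. In MC38 number 3 had the highest neutrophil sums of its tumour, 55.9 FPKM in RFP+ and 52.2 in RFP-, against 46.8 to 51.5 in the other libraries. Single genes did not share this order. Csf3r was highest in number 3 in both gates (41.1 and 41.8 FPKM), as was S100a9 in RFP+ (0.908). Cxcr2 was lowest in number 3 in both gates (1.44 and 1.65), as was S100a8 in RFP+ (1.34). Its macrophage core sum was 40299 FPKM in RFP+, between the other libraries, and 30517 in RFP-, the lowest, whereas its mean log2 core level was the highest in RFP+ (9.73) and between the others in RFP- (9.52). The part of these marker levels was not tested. The mean log2 level of 19 immediate early genes was highest in number 11 of B16F10 (5.83 and 5.75) and in number 3 of MC38 (7.65 and 7.42), and its part was not tested.

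**Figure D4:**
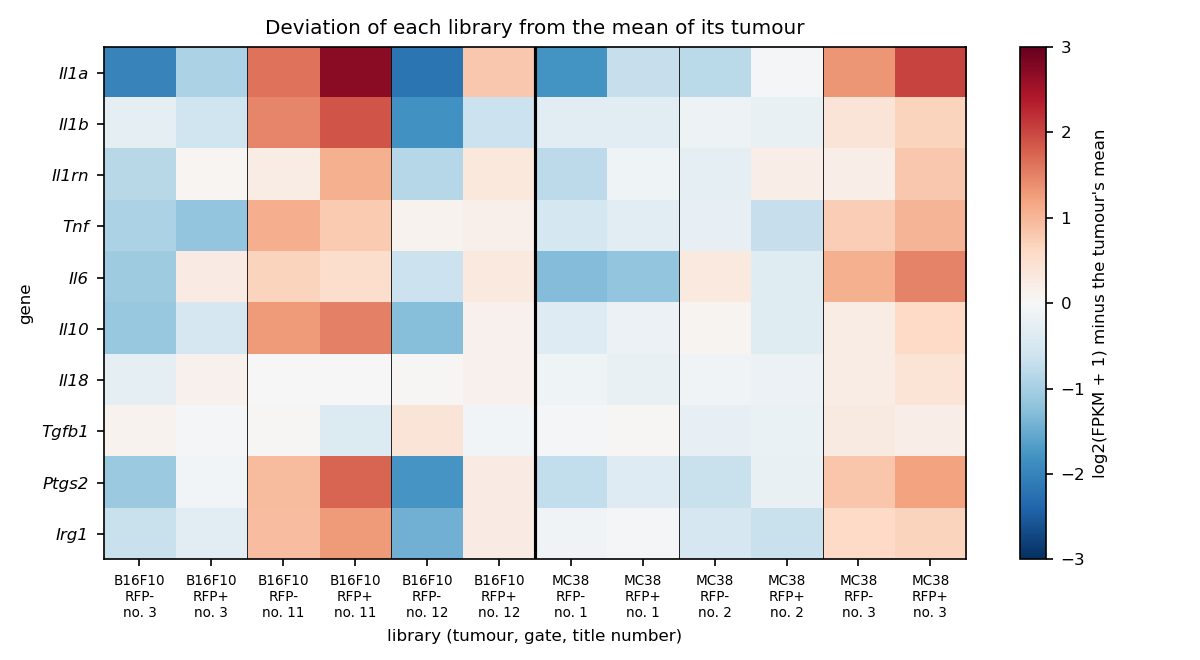
Deviation of log2(FPKM + 1) from the mean of the tumour for each gene (rows) and library (columns, ordered by tumour and title number), red above and blue below the mean. Number 11 of B16F10 and number 3 of MC38 are red in both gates for most genes, and Il18 and Tgfb1 are pale in B16F10.

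Most members varied together across the 12 libraries once each tumour was centred on its mean, which leaves differences between numbers, gates and single libraries. Among the highest values, Il1a and Ptgs2 had a Pearson r of 0.969, Ptgs2 and Irg1 0.945, Il1a and Il1rn 0.941, and Il10 and Irg1 0.921. Il18 had 0.838 with Il6, and only 0.2 with Il1b, 0.383 with Il10 and 0.441 with Irg1. The share of other gene pairs with such r was not counted. Tgfb1 had negative r with 7 of the other 9 genes, all but Tnf and Il18, down to -0.47 with Il10. This pools both tumours, and in MC38 Tgfb1 was highest in number 3 in both gates like the other members. Among all genes with a mean of at least 5 FPKM, the nearest to Il1a was Rsad2 (0.971), an interferon-induced antiviral gene, ahead of Ptgs2 and Ifit1 (0.958). Il10 was nearest to Crem (0.974), a cyclic AMP responsive repressor, and Nfkbia (0.967), an inhibitor of NF-kB. Tnf was nearest to the chemokine Cxcl10 (0.968) and to Cd83 (0.951), Il1b to Coq10b (0.971), Il6 to Gadd45b (0.92) and Il18 to Ccl4 (0.926). Ptgs2 was nearest to Ifrd1 (0.974), Irg1 to Hnrnph3 (0.949), Il1rn to Il1a, and Tgfb1 to the splicing factor gene Sf3a2 (0.971). These values describe 12 libraries and were taken as the highest among all such genes.

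The antagonist was compared with each agonist as a ratio. Il1rn per Il1b was 1.17, 0.339 and 0.956 in B16F10 RFP+ and 1.18, 0.254 and 0.407 in RFP- for numbers 12, 11 and 3. In MC38 it was 0.191, 0.222 and 0.183 in RFP+ and 0.122, 0.153 and 0.147 in RFP- for numbers 1, 2 and 3. All B16F10 libraries lay above all MC38 libraries of the same gate, by 1.87 and 1.82 on the log2 scale, and all MC38 RFP+ libraries above all RFP- ones, by 0.50. An exact permutation test gave p = 0.1 for each, two-sided, the smallest that 3 against 3 allows, and 0.5 after Benjamini-Hochberg adjustment over 20 tests of 5 ratios. In B16F10 the gates overlapped, with a difference of 0.55 (exact permutation p = 0.7, adjusted 0.778). The ratio is free of any scaling between libraries. Il1rn per Il1a overlapped in all 4 comparisons, with differences of 0.11 (p = 1) in RFP+ and 0.79 (p = 0.5) in RFP- between the tumours and of -0.96 (p = 0.5) in B16F10 and -0.28 (p = 0.6) in MC38 between the gates, by the same exact permutation test. Irg1 per Il1b overlapped between the tumours in RFP+, at 0.0368 to 0.0987 in B16F10 and 0.056 to 0.0948 in MC38. In RFP- it did not, at 0.036 to 0.0505 against 0.0609 to 0.0912 (-0.95 on the log2 scale, exact permutation p = 0.1, adjusted 0.5). The remaining ratios, Il1a per Il1b and Il10 per Tnf, overlapped in all 4 comparisons (exact permutation p of 0.2 or more). Within every pair Il1a per Il1b was higher in RFP+, a direction that was not tested.

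**Figure D5:**
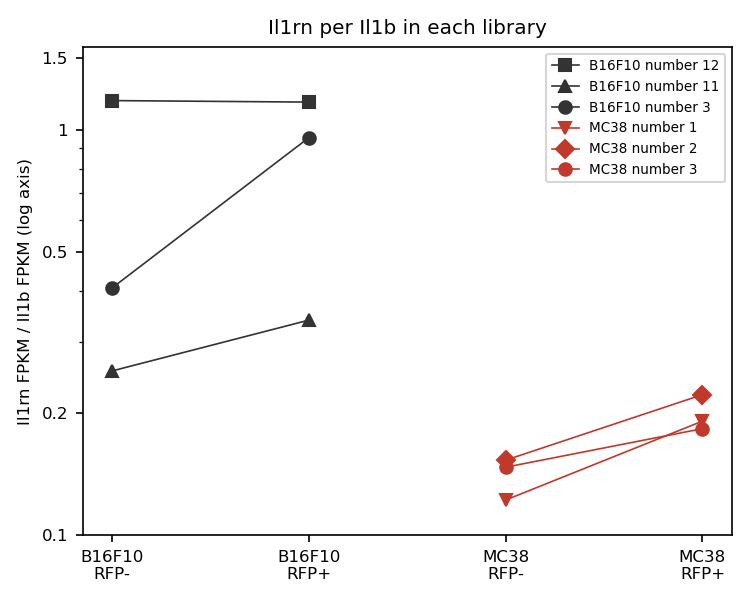
Il1rn FPKM divided by Il1b FPKM (log axis) in each library, with lines joining the gates of the same tumour and title number. The MC38 libraries lie between 0.122 and 0.222, and the lowest B16F10 library, RFP- number 11, is at 0.254.

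Receptors and regulators around these genes were counted from 10 lists. Between the gates none of their genes passed without the block, and none passed in MC38 with it, although without the B16F10 pair number 12 the model called 6 list genes in MC38, where 1.16% of all genes were called. These were Ier3 (0.70, adjusted p = 0.00973), Idh1 (0.49, 0.0212), the cytokine Mif (0.39, 0.0229), Il18bp (0.46, 0.0247) and Nfil3 (0.42, 0.0341), all higher, and Il1r2 (-0.47, 0.0373). In B16F10 with the block 2 of 13 IL-1 family receptors and regulators kept passed, 1 in each direction, where 1.36% of all genes were called (0.830% higher, 0.525% lower), a share to read the counts of the other lists against too. Il1r2, the decoy receptor that binds IL-1 without signalling, fell from 21.6 FPKM ± 8.85 in RFP- to 8.8 ± 3.95 in RFP+ (-1.21 ± 0.12, adjusted p = 0.000669), and Il18bp, the soluble inhibitor of IL-18, rose from 13.9 ± 2.87 to 20.8 ± 3.01 (0.56 ± 0.11, 0.0385). These 2 inhibitors moved in opposite directions beside the rise of Il1rn. Nfkbia, 1 of 15 NF-kB genes, rose by 0.64 ± 0.12 (adjusted p = 0.033; 0.0558 without the pair number 12). Traf1, 1 of 11 TNF signalling genes, fell by 0.99 ± 0.18 (0.0266), and the amino acid oxidase Il4i1, 1 of 15 genes in the list of other cytokines, fell by 1.36 ± 0.28 (0.0433). Both were low, Traf1 at 1.22 FPKM in RFP+ against 3.56 in RFP- and Il4i1 at 0.381 against 2.59, so the sizes depend on the 1 FPKM added before the log2. Dusp1, a phosphatase that limits MAP kinases and 1 of 19 immediate early genes, rose by 0.63 ± 0.11 (0.0214). Scaled to the macrophage core genes, the block model no longer called Il18bp (adjusted p = 0.0863) or Nfkbia (0.054). None passed among 14 inflammasome, 14 IL-6 and IL-10 receptor, 20 TGF-beta, 16 prostaglandin and 21 itaconate and TCA cycle genes, where Casp1 came nearest in the first (0.63 ± 0.17, 0.133).

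In the mean of both tumours with the block, Il1r2 (-0.84 ± 0.08, adjusted p = 0.000645) and Il18bp (0.51 ± 0.08, 0.00805) again passed. Among the further genes were Osm, an IL-6 family cytokine (0.49 ± 0.11, 0.0429), Nfil3, a transcription factor (0.37 ± 0.08, 0.048), and Idh1, an isocitrate dehydrogenase (0.37 ± 0.08, 0.0345). Scaled to the macrophage core genes, Il1r2 stayed lower (0.000353), and Il18bp (0.0502), Osm (0.129), Nfil3 (0.227) and Idh1 (0.178) did not pass.

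Between the tumours most genes of 7 of the 10 lists were lower in B16F10 in both gates as deposited, where 20.0% of all genes were lower in RFP+ and 21.9% in RFP-. In RFP+ 13 of 14 inflammasome genes, 13 of 15 NF-kB genes, 10 of 11 TNF signalling genes and 11 of 14 IL-6 and IL-10 receptor genes were called lower, and in RFP- 12, 12, 9 and 10. So were 8 of 13 IL-1 family genes in each gate, and 16 (RFP+) and 15 (RFP-) of the 19 immediate early genes, which also respond to tissue dissociation. Scaled to the macrophage core genes, which made 84.0% of all 12176 genes then tested higher and 2.89% lower in RFP+ (83.9% and 2.74% in RFP-), the first 4 lists had 2, 1, 1 and 2 genes lower in RFP+ and 5, 6, 7 and 6 higher. In RFP- they had 6, 1, 1 and 2 lower and 5, 7, 6 and 7 higher. Their medians under this scaling were -0.17, 0.16, 0.82 and 0.37 in RFP+, below the all-gene median of 1.74. The sign of the NF-kB, TNF signalling and IL-6 and IL-10 receptor medians thus depended on the scaling. The inflammasome median moved towards 0 and stayed negative, also in RFP- (-0.09). The place of these 4 lists below the median gene could hardly change, because the scaling divides all genes of a library by the same factor. Il18bp was lower under both, at 20.8 FPKM ± 3.01 against 178 ± 5.27 in RFP+ (-3.05 ± 0.15, adjusted p = 6.2e-09; -1.22 and 3.32e-05 when scaled). The IL-33 receptor Il1rl1 (-3.21 ± 0.25, 3.34e-07; -2.32 and 4.17e-06 when scaled) and the IL-10 receptor Il10ra (-3.14 ± 0.27, 8.1e-07; -1.36 and 0.000136 when scaled) were too. Il1rl1 was close to 0 in B16F10 RFP+ (0.0119 FPKM against 8.46 in MC38), so its fold depends on the pseudocount.

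The itaconate and TCA cycle list had the opposite direction to Irg1. In each gate 17 of its 21 genes were higher in B16F10, with 1 lower, where 35.2% and 37.8% of all genes were higher, and 20 were higher when scaled, where 84.0% and 83.9% of all genes were. Idh3a, a subunit of the NAD-dependent isocitrate dehydrogenase, was at 215 against 37.6 FPKM in RFP+ (2.48 ± 0.12, adjusted p = 4.77e-09). Nfe2l2, encoding the oxidative stress factor NRF2, was the 1 lower gene, at 63.2 against 309 FPKM (-2.26 ± 0.17, 2.85e-07), and did not pass when scaled (-0.41, 0.235). Of 16 prostaglandin genes in RFP+, 4 were higher and 6 lower, against 35.2% and 20.0% of all genes (10 and 3 of 17 when scaled, against 84.0% and 2.89%). Ptgs1, the constitutive cyclooxygenase, was lower like Ptgs2, at 3.47 against 34.5 FPKM (-3.10 ± 0.32, 3.8e-06; -1.47 and 0.000297 when scaled). Ptgds, a prostaglandin D synthase, was at 1130 FPKM in B16F10 and 1.02 in MC38 (9.10 ± 0.19, 1.94e-12). The melanocytic genes moved the same way, and their part was not tested. In the TGF-beta list 13 of 20 genes were lower in RFP+ and 2 higher, against 20.0% and 35.2% of all genes, the lower ones including Tgfb3 (-2.20 ± 0.18, 4.34e-07; -0.43 and 0.176 when scaled) and the latency protein gene Ltbp1 (-3.43 ± 0.23, 8.06e-08; -2.50 and 1.15e-06 when scaled, at 0.0362 against 10.5 FPKM), while 4 of 19 were lower and 9 higher when scaled, against 2.89% and 84.0% of all genes.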

How the data were processed

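Each of the 12 libraries was deposited as 1 table of gene symbols with FPKM values made by the authors, the unit per the file headers. RNA was extracted with TRI Reagent and made into libraries with SMART-Seq HT and Nextera XT kits, per the labels' protocols. The submitters' processing notes list TopHat2 2.1.1, Bowtie2 2.2.8, SAMtools 0.1.18, Cuffdiff 2.2.1 and mm10. Annotation, filters, strand and between-library scaling are not stated in the labels, notes or headers, and scaling moves every tumour difference. Read counts are not used here, so depth is known only as relative values of 1 read. No symbol was repeated and no libraries were identical.

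Values were analysed as log2(FPKM + 1), a scale that understates changes of low genes, for genes that reached 1 FPKM in 3 or more libraries. Group means were compared with limma 3.58.1 in R 4.3.3 (lmFit and eBayes with a trend, two-sided, 8 residual degrees of freedom), with Benjamini-Hochberg adjustment over all 11808 genes and a threshold of 0.05. A further model took the title number as a block within tumour (4 residual degrees of freedom), or as a random block with a correlation of 0.291 between the tumours. Pairing was checked over 3 pairs in each tumour: each same-number r was over 0.1, and r for different numbers was -0.306 to 0.018. Ratios were compared with exact permutation tests that did not pair libraries by title number. The script was tested on simulated data. Alternatives were pseudocounts of 0.1 and 5, no filter and a filter of 5 FPKM, 3 other scalings, the compared groups alone, array weights, the block, and each library left out in turn. The block together with macrophage core scaling, and the lists under other scalings, were added after seeing the data.

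The members, the lists and the tests were chosen with earlier results of these data known. Named genes were the 10 members, up to 4 genes past the threshold per pathway list and comparison by smallest adjusted p (or the 1 nearest to it), and the 3 genes most correlated with each member. Of these the text gives those it describes. Irg1 was matched to its current symbol Acod1 for coordinates, taken from GENCODE on GRCm38. Promoters came from RefSeq on GRCm38.p6. Python 3.11.15, pandas 2.3.3 and matplotlib 3.10.9 were used for tables and plots.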

Additional observations from a re-analysis of the deposited data

How the results depend on the processing

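The lower levels of the members in B16F10 and the calls between the gates depended on different choices. With the replicate block 3 members were called higher in RFP+ in B16F10, against 0 without it, and 3 in the mean of both tumours. These counts were also 3 with the block and without the B16F10 pair number 12, and 3 with the block and macrophage core scaling. Of all genes the block called 98 higher in B16F10 and 156 in the mean of both. With core scaling these were 145 and 100, and without the pair number 12 they were 98 and 215. Without that pair the block called 2 members in MC38, where 1.16% of all genes were called. No member was called between the gates without the block, with 0 to 0 called when any 1 library was left out. Macrophage core scaling left 2 members lower and 1 higher in RFP+, and 2 lower and 2 higher in RFP-, with or without the block. Without the block, 2.89% of all genes were then lower and 84.0% higher in RFP+ (2.74% and 83.9% in RFP-). With 1 library left out, 6 to 9 members were lower in RFP+ and 7 to 9 in RFP-.

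Changes of sign concerned differences that did not pass as deposited, apart from Il18 and Tgfb1 between the tumours. Under macrophage core scaling, alike with the block, Il18 turned to -0.0905 in B16F10 and -0.11 in the mean of both. In MC38 Il1b turned to -0.056, Tnf to -0.12, Il10 to -0.0674 and Tgfb1 to -0.0772. Between the tumours it gave 0.82 for Il6, 0.93 for Il18 and 0.33 for Tgfb1 in RFP+, and 0.88 for both Il18 and Tgfb1 in RFP-. Array weights gave -0.059 for Il1b and 0.48 for Tnf in B16F10, -0.037 for Tnf and -0.0034 for Tgfb1 in MC38, -0.00697 for Il1b and 0.22 for Tnf in the mean, and -0.10 and 0.51 for the difference between the tumours. A pseudocount of 5 gave 0.0038 for Il6 in MC38, quantile normalization gave -0.059 for Il1b and -0.0075 for Tnf there, and the block without the pair number 12 gave -0.0400 for Il1b in the difference. The cause was not tested beyond the construction of each alternative.

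With 1 library left out, signs changed for Il1b (-0.41 to 1.26) and Tnf (-0.68 to 0.39) in B16F10. In MC38 they changed for Il1b (-0.23 to 0.30), Tnf (-0.50 to 0.39), Il6 (-0.80 to 0.54), Il10 (-0.23 to 0.25), Il18 (-0.21 to 0.11), Tgfb1 (-0.10 to 0.15), Ptgs2 (-0.12 to 0.90) and Irg1 (-0.35 to 0.31). In the mean of both they changed for Il1b (-0.16 to 0.67), Tnf (-0.34 to 0.20), Il6 (-0.053 to 0.62) and Il18 (-0.024 to 0.13). In the difference between the tumours they changed for Il1a (-0.066 to 2.098), Il1b (-0.50 to 1.17) and Tnf (-0.70 to 0.37), and in B16F10 minus MC38 in RFP+ for Il6 (-0.96 to 0.38).

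Of all genes, the gate calls in B16F10 (15 higher and 6 lower) ran from 4 to 145 and from 0 to 2121 over the alternatives that kept all libraries or left out the pair number 12, and in MC38 (3 and 0) from 1 to 113 and from 0 to 24. For the mean of both (40 and 13) they ran from 13 to 215 and from 0 to 817, and for the difference (0 and 0) from 0 to 3 and from 0 to 4. The tumour calls in RFP+ (4159 higher and 2364 lower) became 10225 and 352 under macrophage core scaling and 3365 and 3014 under quantile normalization. In RFP- (4467 and 2584) they became 10210 and 334, and 3564 and 3291. Low values of Il6, Il10 and Tgfb1 rest on few reads in B16F10. The Il10 call in RFP+ was lost with a pseudocount of 0.1 (adjusted p = 0.0606) and, with that of Ptgs2, without a filter (0.0628 and 0.08). The Il1a call in RFP- was lost with a pseudocount of 5 (0.0526), without a filter (0.114) and with the block but without the pair number 12 (0.0991), and the Tgfb1 call there without a filter (0.0573) and with the compared groups alone (0.0879). Array weights called Il1a in RFP+ (0.0442).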
